A study of Mus musculus and Homo sapiens with 18 samples.

Results

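Heat shock proteins and co-chaperones are the proteins that fold, hold and refold other proteins in the cytosol and mitochondria. The 35 mouse genes described here were chosen by name: 2 heat shock transcription factors, 2 HSP90 genes, 7 genes of the HSP70 and HSP110 family, 3 mitochondrial chaperones, 6 small heat shock proteins, 5 J-domain proteins, 2 BAG proteins, 3 HSP90 co-chaperones and 5 subunits of the TRiC chaperonin. All 35 were found once by symbol among the 55858 gene identifiers of the mouse tables, and all 35 passed the filter on low counts in both comparisons. The rule uses no measured value, but the members were chosen with earlier results of these data known. Of the members, 3 (Hspa9, Hspd1 and Hspe1) act in mitochondria rather than the cytosol.

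When unfolded proteins accumulate, HSF1 is released from chaperones, binds heat shock elements in promoters and raises transcription of the inducible HSP70, HSP90, small heat shock and J-domain genes. J-domain proteins hand clients to HSP70 and start its ATP cycle, BAG and HSP110 proteins release the nucleotide, STIP1 passes clients on to HSP90, and AHSA1 speeds the HSP90 ATPase. Small heat shock proteins hold unfolded clients without using ATP, and TRiC folds actin, tubulin and other clients inside a closed ring. Many tumours express these chaperones at a high level, and HSP90 and its partners have been studied as drug targets in them.

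RNA was compared between 2 pairs of groups with 3 libraries each, 12 of the 18 libraries of the series. The first pair came from GEMM, a genetically engineered model of bladder cancer in mice, namely tumours relapsed after chemotherapy (cisplatin plus gemcitabine, per the labels' protocols), and the control tumours of that model, for which the protocols name a vehicle. The second pair was the mouse cell line CUUC-G, labelled bladder and GEMM, carrying a guide RNA against Igfbp5 (sgIgfbp5), or the control guide sgScr. The sample titles call the targeted cells knockdowns, while the series design speaks of IGFBP5 knockout, and the alleles and driving promoter of the model, its strain, the age and sex of the animals, the time to relapse, and whether CUUC-G is a clone are not given in the sources used here. The table columns marked mI were read as sgIgfbp5 by analogy with the human columns marked hI. The human line MGHU3 was not analysed here.

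Total estimated counts lay between 18.965 and 21.757, in units of 1e6, in the tumour libraries and between 19.211 and 20.73 in CUUC-G. Igfbp5, which encodes a secreted binding protein of insulin-like growth factors, had 1.04, 2.56 and 2.31 counts scaled to library size (CPM, counts per 1e6) with sgScr and 0.606, 0.393 and 0.470 CPM with sgIgfbp5. It had 0.182, 0.894 and 0.302 CPM in the control and 1.80, 3.19 and 2.40 CPM in the relapsed tumours. A guide RNA need not lower a transcript, so these low levels check the labels only in part. Markers of the labelled tissue were sparse: in the control tumours Krt5, Upk2 and Upk3a had no count and the 9 epithelial markers summed to between 8.85 and 10.3 CPM, against 514 to 535 CPM at relapse. At relapse Krt5 and Upk3a again had no count and Upk2 had 1. The sum there was mostly Krt19 (261 CPM), Krt8 (142 CPM) and Krt18 (85.95 CPM). The 7 fibroblast markers summed to between 18770 and 19370 CPM in the control and between 8573 and 8738 CPM in the relapsed libraries. Of these, 4 fell, among them the abundant Col1a1 (9942 to 5483 CPM), and 3 rose, among them Pdgfra (11.2 to 108 CPM). The 9 immune markers stayed at or below 6.23 CPM, with Cd3e at 0, and the 6 endothelial markers went from at most 2.72 CPM to between 151 and 163 CPM, nearly all of it Kdr (156 CPM). From sgScr to sgIgfbp5 the epithelial sum went from between 572 and 646 CPM to between 116 and 139 CPM, the fibroblast sum from between 9087 and 9583 CPM to between 4812 and 5431 CPM, the endothelial sum from between 149 and 157 CPM to between 8.79 and 9.10 CPM, and immune markers stayed at or below 5.94 CPM. Of the 6 fibroblast markers tested there, 4 fell, among them Col1a1 (5939 to 2820 CPM), and 2 rose, among them Col3a1 (630 to 1337 CPM). Nearly all of the endothelial sum was again Kdr (152.5 to 7.79 CPM). The part of these markers in the chaperone results was not tested. The Y-linked gene Ddx3y had 4503 counts in the control tumours in all, 0 at relapse and 0 in CUUC-G, so the origin of the cells moves with the tumour groups and cannot be told apart from relapse. Whether libraries of a group came from separate tumours or cultures is not given in the labels, so the p-values below measure the spread between these libraries, which may be technical. In bulk RNA, fewer cells of a type and less RNA per cell cannot be told apart.

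Promoters of these genes are shown first, because heat shock elements are the sequences through which HSF1 acts. RefSeq windows on GRCm38.p6, from 250 bases before to 50 bases after the annotated start, were found for 27 of the 35 members. They were searched on both strands for a full element of 3 alternating units, GAA, any 2 bases, TTC, any 2 bases and GAA, with overlapping matches allowed. Matches were found in 4 of the 27 members (14.8%), Hspd1, Hspe1, Hsph1 and Chordc1, and in 179 of the 27025 gene symbols with a window (0.662%). Hsf1, Hsp90aa1, Hsp90ab1, Hspa8, Hspa9, Hspb2, Cryab and Cct4 had no window and were not searched. The Hspe1 window (chr1:55087898-55088197, plus strand) holds 2 overlapping matches, and the overlapping Hspd1 window on the opposite strand holds the same 2. The Chordc1 window (chr9:18292017-18292316, plus strand) holds 3 overlapping matches, and the Hsph1 window (chr5:149636287-149636586, minus strand) holds 1. Capitals mark the matches.
Hspe1: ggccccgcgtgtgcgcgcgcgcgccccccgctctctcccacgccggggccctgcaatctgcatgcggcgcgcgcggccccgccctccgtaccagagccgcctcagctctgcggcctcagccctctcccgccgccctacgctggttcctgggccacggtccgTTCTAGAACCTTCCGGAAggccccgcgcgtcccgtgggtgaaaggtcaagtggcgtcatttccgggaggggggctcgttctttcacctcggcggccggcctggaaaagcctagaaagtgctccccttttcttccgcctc
Chordc1: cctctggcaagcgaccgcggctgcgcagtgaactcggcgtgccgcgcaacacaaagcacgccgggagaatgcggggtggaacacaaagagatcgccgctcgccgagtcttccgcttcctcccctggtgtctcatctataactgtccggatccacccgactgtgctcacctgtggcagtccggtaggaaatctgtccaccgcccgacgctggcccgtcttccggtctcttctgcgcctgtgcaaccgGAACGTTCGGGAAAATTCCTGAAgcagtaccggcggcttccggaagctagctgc
Hsph1: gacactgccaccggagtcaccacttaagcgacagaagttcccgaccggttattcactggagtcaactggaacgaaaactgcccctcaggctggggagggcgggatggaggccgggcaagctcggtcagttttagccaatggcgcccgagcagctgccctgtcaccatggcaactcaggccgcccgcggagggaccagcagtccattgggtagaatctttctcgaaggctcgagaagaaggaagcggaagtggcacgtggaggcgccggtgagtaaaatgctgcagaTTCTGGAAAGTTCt
The windows of the stress-inducible pair Hspa1a (chr17:34972107-34972406) and Hspa1b (chr17:34959189-34959488), both on the minus strand, are shown because these near-identical genes were among the most changed. They hold no match to this strict pattern and were identical at 296 of 300 aligned bases (98.7%).
Hspa1a: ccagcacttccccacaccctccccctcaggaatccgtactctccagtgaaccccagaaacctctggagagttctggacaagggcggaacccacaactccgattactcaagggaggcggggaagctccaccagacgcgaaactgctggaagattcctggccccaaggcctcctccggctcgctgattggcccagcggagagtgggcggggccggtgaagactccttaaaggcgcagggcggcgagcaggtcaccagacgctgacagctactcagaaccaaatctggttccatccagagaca
Hspa1b: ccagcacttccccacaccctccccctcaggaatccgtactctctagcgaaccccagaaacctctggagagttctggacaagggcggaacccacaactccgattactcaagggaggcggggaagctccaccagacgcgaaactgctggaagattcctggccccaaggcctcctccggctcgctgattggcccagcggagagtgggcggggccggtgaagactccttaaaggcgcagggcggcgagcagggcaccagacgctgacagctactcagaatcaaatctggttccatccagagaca
A match is only a description of the letters, and the absence of one says only that this pattern is not in the window. The 4 genes with a match did not move alike: at relapse the log2 fold change was 1.15 for Hsph1, 0.18 for Hspe1, -0.03 for Hspd1 and -0.12 for Chordc1.

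In the relapsed tumours both HSP90 genes, 6 of the 7 HSP70 and HSP110 genes and 3 of the 6 small heat shock genes rose, while both heat shock factors, the mitochondrial HSP70 gene Hspa9 and the other 3 small heat shock genes fell. The largest increases were in Hspb1, Cryab and Hspb7 of the small heat shock family and in Hspa1a, Hspa1b and Hspa4l of the HSP70 family. Of the 35 members, 21 rose, 11 fell and 3 did not pass an adjusted p of 0.05 in edgeR's quasi-likelihood test, which was adjusted over all 14373 genes tested. In the background of all genes tested 73.5% were called, 36.6% higher and 36.9% lower, against 91.4%, 60% and 31.4% of the members. The median log2 fold change, relapsed over control, was 0.17 over the members and 0.00 over all genes tested. At least 2-fold increases numbered 11 members, against 13.2% of all genes tested. No member fell by as much, against 12% of all genes tested. Of all members, 32 had CPM ranges that did not overlap between the groups, against 75.3% of all genes tested. On log2(TPM + 1) without a filter, 15 members were higher and 12 lower in limma's test, against 15.1% and 20% of the 25513 genes in that run. With a filter that scale put the median of all genes at -0.12 and called 16 members higher and 12 lower, against 3529 higher and 5139 lower of the 13333 genes in that run.

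**Figure D1:**
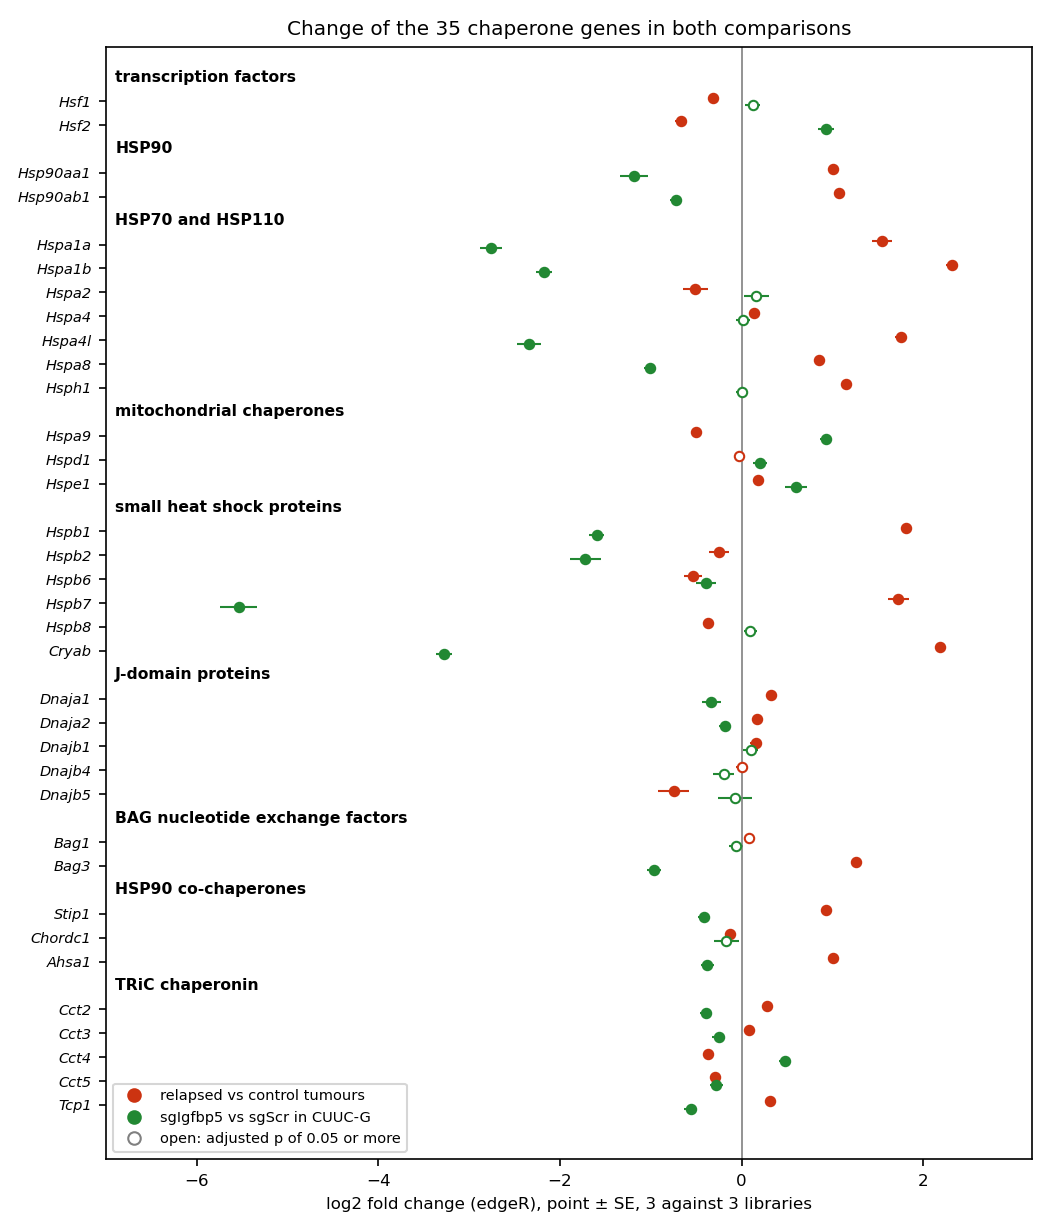
Log2 fold change with its standard error (x axis) of each of the 35 genes, by family, for relapsed against control tumours (red) and sgIgfbp5 against sgScr CUUC-G cells (green), 3 against 3 libraries. Filled points passed an adjusted p of 0.05, and 17 genes lie to the right in red and to the left in green with both points filled.

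Small heat shock proteins split into 2 sets at relapse. Cryab (alpha B crystallin, which holds unfolded proteins and desmin filaments; ENSMUSG00000032060.11, chromosome 9, 50751325 to 50756636, plus strand, GRCm38 by GENCODE M21) had 67.5, 67.8 and 65.2 CPM in the control libraries and 310.1, 295 and 308 CPM in the relapsed libraries. All relapsed libraries lay above all control libraries, and the log2 fold change was 2.19 ± 0.04 (SE, n = 3; edgeR adjusted p = 2.15e-26), a 4.55-fold difference. Hspb1, the widely expressed HSP25 that binds actin filaments, had 63.2, 60.2 and 65.0 CPM in the control libraries and 224, 212 and 223 CPM in the relapsed libraries, also without overlap (log2 fold change 1.81 ± 0.04; edgeR adjusted p = 1.1e-23). Hspb7, a family member best known from heart muscle, had 7.66, 6.89 and 5.48 CPM in the control libraries and 21.8, 21.8 and 23.0 CPM in the relapsed libraries, with a log2 fold change of 1.73 ± 0.11. In contrast, Hspb8, the partner of BAG3 in selective autophagy, had 107, 97.4 and 109.5 CPM in the control libraries and 77.3, 85.7 and 80.1 CPM in the relapsed libraries, and fell by 0.37 on the log2 scale. Hspb6, an actin-linked small heat shock protein of muscle, had 21.2, 23.8 and 17.6 CPM in the control libraries and 14.2, 14.5 and 14.5 CPM in the relapsed libraries, a log2 fold change of -0.54 ± 0.10. For Hspb2 (muscle HSP, ENSMUSG00000038086.5, chromosome 9, 50751078 to 50752354, minus strand) the values were 13.4, 14.8 and 13.0 CPM in the control libraries and 10.8, 11.7 and 12.2 CPM in the relapsed libraries, a small difference (log2 fold change -0.25 ± 0.11; edgeR adjusted p = 0.0427). This call was lost in 7 alternatives, among them DESeq2 and leaving out control replicate 1 or 2 or relapsed replicate 1 or 2. Hspb2 and Cryab lie head to head, and 252 exon bases, 30.2% of those of Hspb2, are shared on opposite strands. The library kit keeps strand, but the strand setting of the counting is not given in the sources used here. Of 8 smooth muscle markers, 7 fell and 0 rose at relapse, with a summed level of 2424 to 2544 CPM in the control and 1305 to 1327 CPM in the relapsed libraries, so Hspb2, Hspb6 and Hspb8 moved with them and Cryab, Hspb1 and Hspb7 against them. The 9 skeletal and cardiac muscle markers summed to between 18.2 and 20.5 CPM in the control and between 0.997 and 2.50 CPM in the relapsed libraries, with 1 of the 2 tested called, lower. Their part in the levels of the small heat shock genes was not tested.

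Among HSP70 genes the inducible pair rose more than the constitutive Hspa8. Hspa1b had 16.8, 16.5 and 17.9 CPM in the control libraries and 86.5, 82.9 and 86.1 CPM in the relapsed libraries, a log2 fold change of 2.32 ± 0.07 (SE, n = 3; edgeR adjusted p = 4.4e-22), that is 4.99-fold. Hspa1a had 7.34, 7.04 and 8.14 CPM in the control libraries and 22.3, 20.6 and 23.0 CPM in the relapsed libraries, a log2 fold change of 1.55 ± 0.11. In both genes every relapsed library was above every control library. The genes lie 9951 bases apart on chromosome 17, and 63.8% of the 31-base words of Hspa1a also occur in Hspa1b, so the split of reads between them is uncertain. Summed to 1 feature, the pair rose by 2.12 ± 0.06 on the log2 scale. Hspa8, the constitutive HSC70, had 1898, 1971 and 1917 CPM in the control libraries and 3464, 3477 and 3505 CPM in the relapsed libraries, a log2 fold change of 0.85 ± 0.02. Hspa4l, an HSP110 relative that exchanges nucleotide on HSP70, had 21.8, 26.2 and 24.5 CPM in the control libraries and 82.2, 84.2 and 78.4 CPM in the relapsed libraries (log2 fold change 1.76 ± 0.07). Hsph1, the inducible HSP110, had 128, 126 and 121 CPM in the control libraries and 274, 274 and 282 CPM in the relapsed libraries and rose 2.22-fold. Hspa4, the main constitutive HSP110 relative, rose slightly, with 667, 701 and 668 CPM in the control libraries and 752, 742 and 738 CPM in the relapsed libraries (log2 fold change 0.13 ± 0.03), and on log2(TPM + 1) its difference was -0.03. Hspa2, an HSP70 gene best known from testis, fell from a low level, with 13.3, 13.0 and 10.4 CPM in the control libraries and 9.38, 7.07 and 9.31 CPM in the relapsed libraries.

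Both HSP90 genes rose about alike. Hsp90ab1, the constitutive form, had 1593, 1616 and 1616 CPM in the control libraries and 3394, 3427 and 3371 CPM in the relapsed libraries, and Hsp90aa1, the inducible form, had 1094, 1153 and 1134 CPM in the control libraries and 2266, 2294 and 2252 CPM in the relapsed libraries. The log2 fold changes were 1.08 ± 0.02 and 1.01 ± 0.03 (SE, n = 3; edgeR adjusted p = 1.97e-24 and 9.46e-23). Neither gene had a control library near the relapsed ones. In TPM, which is scaled by transcript length as well as library size and allows levels of different genes to be compared, the Hsp90aa1 to Hsp90ab1 ratio was 0.624, 0.625 and 0.612 in the control and 0.601, 0.606 and 0.598 in the relapsed libraries, so the balance of the forms was nearly kept (difference -0.04 on the log2 scale; exact permutation p = 0.1, two-sided, the smallest that 3 against 3 libraries allow). Of the co-chaperones, Ahsa1, the activator of the HSP90 ATPase, had 73.8, 63.1 and 65.9 CPM in the control libraries and 131, 136 and 142 CPM in the relapsed libraries (log2 fold change 1.01 ± 0.05), and Stip1, the HSP70 to HSP90 adaptor, had 318, 305 and 321 CPM in the control libraries and 589, 590.3 and 615 CPM in the relapsed libraries (log2 fold change 0.93 ± 0.03). Chordc1, an HSP90-binding zinc protein, had 99.5, 108 and 104 CPM in the control libraries and 91.9, 97.5 and 96.3 CPM in the relapsed libraries, a small decrease of 0.12 on the log2 scale in counts. It was not called when control replicate 2 or relapsed replicate 1 was left out, at log2 fold changes of -0.10 in both, or with protein-coding transcripts alone (-0.09). In TPM the difference was larger, from 78.3 ± 4.02 in the control to 51.6 ± 1.02 in the relapsed libraries (SD, n = 3).

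**Figure D2:**
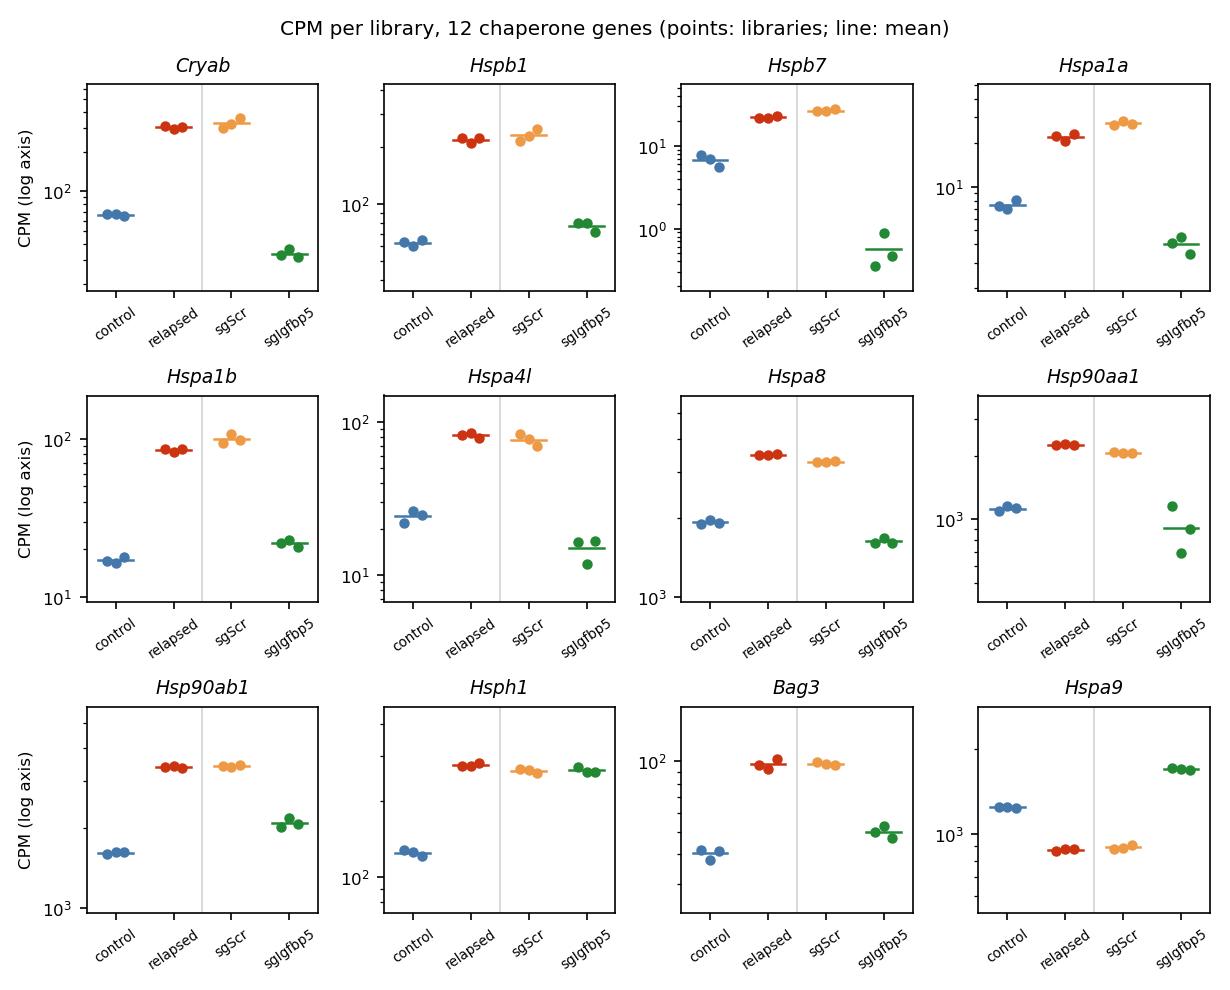
CPM (log axis) of 12 genes in each of the 12 libraries, by group, with a line at the group mean. For each gene relapsed and sgScr libraries lie within 1.5-fold in mean TPM, and Hsph1 is the gene of the panel whose sgScr and sgIgfbp5 libraries overlap.

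Apart from Bag3, the J-domain, BAG and TRiC genes moved less than 2-fold. Dnajb1, the inducible HSP40 that pairs with HSP70, had 54.5, 50.4 and 53.4 CPM in the control libraries and 63.8, 53.9 and 58.5 CPM in the relapsed libraries. These ranges overlap, and the call (log2 fold change 0.15 ± 0.06; edgeR adjusted p = 0.0312) was lost in 9 alternatives, among them leaving out either control replicate 2 or 3 or relapsed replicate 1 or 3. Dnaja1 and Dnaja2, which serve Hspa8, had log2 fold changes of 0.33 ± 0.04 and 0.17 ± 0.03, and on log2(TPM + 1) without a filter neither was called, at 0.15 and 0.01. Dnajb4 did not pass (log2 fold change 0.00 ± 0.07), with 41.5, 39.6 and 43.1 CPM in the control libraries and 40.2, 43.4 and 41.0 CPM in the relapsed libraries. Dnajb5 fell from a low level, with 7.66, 6.36 and 7.59 CPM in the control libraries and 3.84, 3.94 and 5.1 CPM in the relapsed libraries. Bag3, the stress-inducible BAG protein that links HSP70 to autophagy, had 41.6, 37.96 and 41.4 CPM in the control libraries and 96.0, 92.2 and 101 CPM in the relapsed libraries, a log2 fold change of 1.26 ± 0.06 (SE, n = 3; edgeR adjusted p = 2.16e-17). Bag1, a nucleotide exchange factor tied to the proteasome, had 129, 129.9 and 127 CPM in the control libraries and 133, 135 and 140.3 CPM in the relapsed libraries and did not pass (edgeR adjusted p = 0.0664), but was called higher with RLE size factors, at a log2 fold change of 0.09.

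TRiC subunits, which are built into the ring in equal numbers, did not shift together. Cct2 (0.28 ± 0.03), Tcp1 (0.32 ± 0.03) and Cct3 (0.08 ± 0.03) had positive log2 fold changes at relapse, and Cct4 (-0.37 ± 0.03) and Cct5 (-0.29 ± 0.03) negative ones. The Cct3 difference was -0.01 on log2(TPM + 1), and its call was lost by library size alone (0.06), without the low-count filter (0.06), and without control replicate 3, relapsed replicate 2 or relapsed replicate 3. Cct4 had 459.8, 474 and 447 CPM in the control libraries and 366, 349.8 and 353 CPM in the relapsed libraries, and Cct5 had 616, 579 and 605 CPM in the control libraries and 493, 489 and 486 CPM in the relapsed libraries, without overlap in either gene. Relative to the mean TPM of the 5 subunit genes, Cct5 stood at 1.36, 1.3 and 1.35 in the control and 1.06, 1.04 and 1.06 in the relapsed libraries. For Cct4 that ratio was 0.828, 0.86 and 0.837 in the control and 0.66, 0.631 and 0.648 in the relapsed libraries.

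Both heat shock factors fell at relapse, and of the 3 mitochondrial chaperones Hspa9 fell, Hspe1 rose and Hspd1 did not pass. Hsf1, the main regulator of the response, had 89.6, 84.7 and 77.9 CPM in the control libraries and 67.5, 65.3 and 70.5 CPM in the relapsed libraries, a log2 fold change of -0.31 ± 0.05 (SE, n = 3; edgeR adjusted p = 1.12e-05). Hsf2, its developmental relative, had 49.4, 51.7 and 51.1 CPM in the control libraries and 34.1, 31.8 and 30.3 CPM in the relapsed libraries (log2 fold change -0.66 ± 0.07). Both factors were thus lower at relapse, with no overlap between the groups. These are transcript levels, and the activity of HSF1 was not measured. Hspa9, the mitochondrial HSP70 mortalin, had 1245, 1243 and 1234 CPM in the control libraries and 866, 880.5 and 880.2 CPM in the relapsed libraries, a log2 fold change of -0.50 ± 0.03. Hspd1 and Hspe1, which form the mitochondrial chaperonin and its lid, had log2 fold changes of -0.03 ± 0.03 and 0.18 ± 0.04. Hspd1 did not pass (edgeR adjusted p = 0.356), with 1016, 973 and 1019 CPM in the control libraries and 984, 996 and 967 CPM in the relapsed libraries, but was called lower on log2(TPM + 1), at -0.15, and without control replicate 2, at -0.06. Hspe1 had 151, 155 and 159.9 CPM in the control libraries and 172, 179 and 178 CPM in the relapsed libraries and lost its call on log2(TPM + 1), at a difference of 0.07.

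Sums over each family show how much of the transcript pool these changes made up. The 6 small heat shock genes went from 554 ± 4.61 to 1448 ± 29.0 TPM (SD, n = 3), control to relapsed, and the 2 HSP90 genes from 1750 ± 37.0 to 3325 ± 39.6 TPM. HSP70 and HSP110 genes went from 1792 ± 37.3 to 2869 ± 27.6 TPM and the 3 mitochondrial chaperones from 1907 ± 34.8 to 1621 ± 20.1 TPM. The 5 TRiC genes went from 2195 ± 4.12 to 2052 ± 32.3 TPM. All 35 genes together went from 9372 ± 69.9 to 12730 ± 10.3 TPM.

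**Figure D3:**
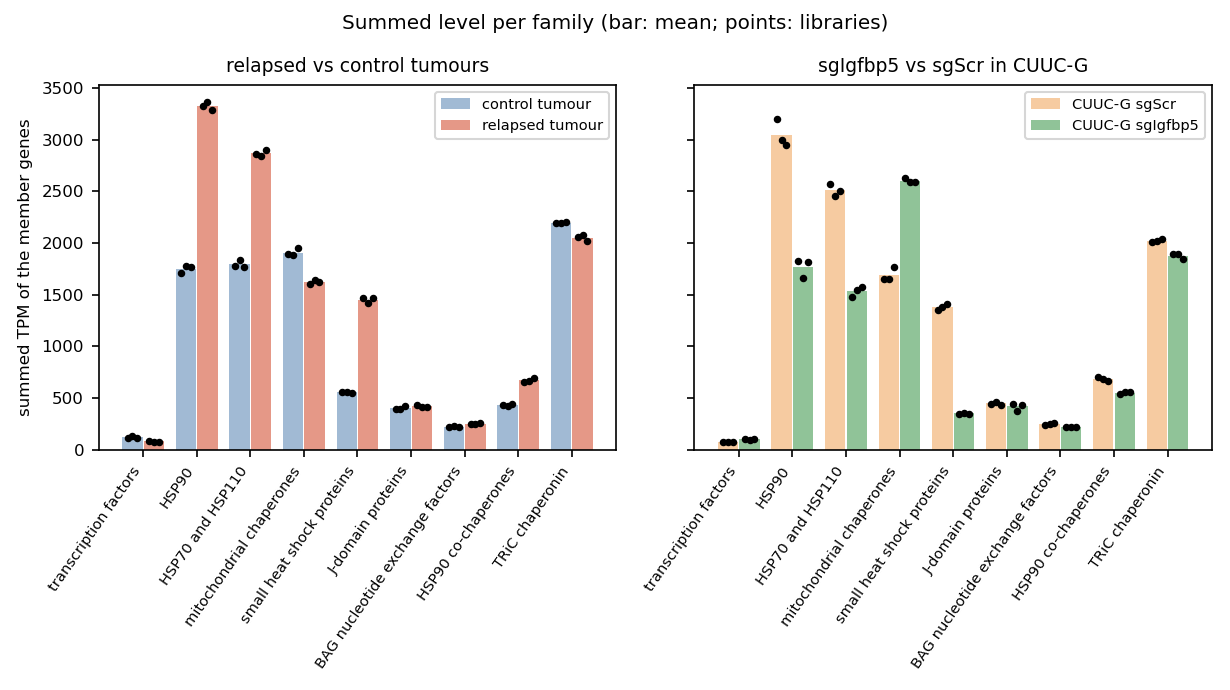
Summed TPM of the member genes of each family (bars: group means from 0; points: the 3 libraries) in the tumours (left) and in CUUC-G (right). HSP90, HSP70 and small heat shock bars are higher at relapse and lower with sgIgfbp5, and the mitochondrial bar goes the other way in both panels.

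In the tumours the deposited counts are given by transcript, so the estimated share of each transcript in its gene could be read. The main Cryab transcript, Cryab-205, made up 50.9, 53.2 and 54.8% in the control and 71.6, 70.6 and 76.0% in the relapsed libraries. Its share was higher in each relapsed library. For Hsp90aa1-201 the share was 88.3, 88.9 and 75.7% in the control and 93.7, 92.6 and 89.1% in the relapsed libraries, and for Hspa4l-207 61.5, 59.1 and 54.7% in the control and 69.9, 67.6 and 71.7% in the relapsed libraries. Hsf2-201 moved the other way, with 69.4, 66.1 and 68.5% in the control and 56.5, 60.2 and 64.6% in the relapsed libraries. For many other members the share of the main transcript overlapped between the groups, among them Hspa8, Hsph1, Bag1 and Dnaja1. Hspa1a, Hspa1b, Hspb7, Bag3 and Stip1 each have 1 transcript in the table. Counting protein-coding transcripts alone left 21 members higher and 9 lower, against 4680 and 4699 of the 12547 genes in that run.

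The same genes were then read in CUUC-G with and without the Igfbp5 guide. With sgIgfbp5 both HSP90 genes, 4 of the 7 HSP70 and HSP110 genes and 5 of the 6 small heat shock genes fell, and the 3 mitochondrial chaperones, Hsf2 and Cct4 rose. The largest decreases were in Hspb7, Cryab, Hspa1a, Hspa4l and Hspa1b. Of the 35 members, 20 fell, 5 rose and 10 did not pass in edgeR's test, adjusted over 14553 genes tested. Of all genes tested 70.8% were called, 34.3% lower and 36.5% higher, against 71.4%, 57.1% and 14.3% of the members. Scaled by library size alone, which moved the median log2 fold change of all genes to 0.17, 17 members were lower and 8 higher, against 30.2% and 41.5% of all genes tested. The median log2 fold change, sgIgfbp5 over sgScr, was -0.28 over the members and 0.06 over all genes tested. At least 2-fold lower were 9 members, against 16.8% of all genes tested, and 26 members had groups that did not overlap, against 73.9%. No member was at least 2-fold higher, against 14.6% of all genes tested.

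The 2 members with the largest decreases were small heat shock genes. Hspb7 (ENSMUSG00000006221.8, chromosome 4, 141420779 to 141425311, plus strand) had 26.3, 26.2 and 27.8 CPM in the sgScr libraries and 0.353, 0.885 and 0.47 CPM in the sgIgfbp5 libraries, 46.5-fold lower with sgIgfbp5 (log2 fold change -5.54 ± 0.21, SE, n = 3; edgeR adjusted p = 1.36e-09). That level rests on 35 counts over the sgIgfbp5 and 1543 over the sgScr libraries, and on the compressed log2(TPM + 1) scale the difference was -3.49. Cryab had 303, 324 and 357 CPM in the sgScr libraries and 33.1, 36.4 and 32.0 CPM in the sgIgfbp5 libraries, a log2 fold change of -3.28 ± 0.09 (edgeR adjusted p = 1.47e-10), or 9.68-fold lower. Hspb1 had 215, 231 and 250.4 CPM in the sgScr libraries and 79.5, 79.5 and 71.3 CPM in the sgIgfbp5 libraries (log2 fold change -1.60 ± 0.08). All 3 had their lowest sgScr library well above their highest sgIgfbp5 library. Hspb2 had 12.9, 17.2 and 17.8 CPM in the sgScr libraries and 4.64, 5.8 and 4.09 CPM in the sgIgfbp5 libraries (log2 fold change -1.72 ± 0.17), with the same exon overlap with Cryab, and Hspb6 had 14.4, 16.0 and 16.1 CPM in the sgScr libraries and 11.1, 12.2 and 12.1 CPM in the sgIgfbp5 libraries (log2 fold change -0.39 ± 0.11). Both of these were called lower in each comparison. Hspb8 had 88.7, 89.4 and 86.7 CPM in the sgScr libraries and 91.8, 97.5 and 94.0 CPM in the sgIgfbp5 libraries and did not pass (log2 fold change 0.10 ± 0.07), although its groups did not overlap, and was called higher by library size alone (0.21). All 8 smooth muscle markers fell, from a sum of 1335 to 1525 CPM with sgScr to 165 to 195 CPM with sgIgfbp5, so here the 5 small heat shock genes that fell moved with these markers. The skeletal and cardiac muscle markers summed to at most 1.66 CPM with sgScr and 3.19 CPM with sgIgfbp5. Whether the markers bear on these genes was not tested.

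Among HSP70 genes, Hspa1a had 26.3, 28.2 and 27.0 CPM in the sgScr libraries and 4.09, 4.53 and 3.43 CPM in the sgIgfbp5 libraries, a log2 fold change of -2.76 ± 0.13 (SE, n = 3; edgeR adjusted p = 6.26e-09), and Hspa1b had 94.0, 107 and 97.6 CPM in the sgScr libraries and 22.1, 23.0 and 20.9 CPM in the sgIgfbp5 libraries (-2.18 ± 0.09). Summed, this near-identical pair fell by 2.28 ± 0.08 on the log2 scale. Hspa4l had 82.8, 77.2 and 69.4 CPM in the sgScr libraries and 16.6, 11.8 and 16.8 CPM in the sgIgfbp5 libraries, a log2 fold change of -2.34 ± 0.13, and Hspa8 had 3257, 3257 and 3291 CPM in the sgScr libraries and 1607, 1675 and 1602 CPM in the sgIgfbp5 libraries (-1.01 ± 0.06). In TPM, the Hspa1a plus Hspa1b level relative to Hspa8 was 0.0309, 0.0347 and 0.0313 in the sgScr and 0.0137, 0.0127 and 0.0119 in the sgIgfbp5 libraries. At relapse the same ratio was 0.0105, 0.0103 and 0.0115 in the control and 0.0263, 0.0256 and 0.0259 in the relapsed libraries. The inducible pair thus moved more than Hspa8 in both comparisons, with differences of -1.34 and 1.27 on the log2 scale (exact permutation p = 0.1 in each, the smallest possible).

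Hsph1, Hspa4 and Hspa2 did not pass with sgIgfbp5. For Hsph1 the values were 267, 265 and 257 CPM in the sgScr libraries and 271, 259 and 260.1 CPM in the sgIgfbp5 libraries, and the log2 fold change was 0.00 ± 0.06, against 1.15 ± 0.04 at relapse. Hspa4 had 697, 691 and 696 CPM in the sgScr libraries and 773, 651 and 689 CPM in the sgIgfbp5 libraries, and Hspa2 had 9.49, 9.53 and 9.63 CPM in the sgScr libraries and 8.89, 11.3 and 11.9 CPM in the sgIgfbp5 libraries. The groups overlap in all 3 genes. Whether the Hsph1 change differs between the comparisons was not tested.

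Hsp90aa1 had 2099, 2062 and 2071 CPM in the sgScr libraries and 1158, 689 and 897 CPM in the sgIgfbp5 libraries. The sgIgfbp5 libraries were spread widely, from replicate 2 to replicate 1, and every sgScr library was still higher (log2 fold change -1.18 ± 0.15, SE, n = 3; edgeR adjusted p = 7.78e-05). Hsp90ab1 had 3437, 3407 and 3459 CPM in the sgScr libraries and 2012, 2181 and 2064 CPM in the sgIgfbp5 libraries (log2 fold change -0.72 ± 0.07). Their TPM ratio was 0.55, 0.546 and 0.541 in the sgScr and 0.523, 0.29 and 0.393 in the sgIgfbp5 libraries. Stip1 had 605, 602 and 618 CPM in the sgScr libraries and 444, 483 and 448 CPM in the sgIgfbp5 libraries and Ahsa1 159, 168 and 170.3 CPM in the sgScr libraries and 125, 137 and 121 CPM in the sgIgfbp5 libraries, with log2 fold changes of -0.41 ± 0.07 and -0.38 ± 0.07. Chordc1 did not pass, with 83.8, 84.5 and 84.2 CPM in the sgScr libraries and 90.0, 58.0 and 77.0 CPM in the sgIgfbp5 libraries. Its sgIgfbp5 replicate 1 lay above and the other two below all sgScr libraries, and without that replicate Chordc1 was called lower, at a log2 fold change of -0.33.

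Bag3 had 98.9, 97.0 and 96.1 CPM in the sgScr libraries and 49.9, 53.0 and 47.1 CPM in the sgIgfbp5 libraries, a log2 fold change of -0.96 ± 0.08, while Bag1 did not pass, with 137, 155 and 166 CPM in the sgScr libraries and 147, 149 and 142 CPM in the sgIgfbp5 libraries. Of the J-domain genes, Dnaja1 fell by 0.34 on the log2 scale, with 242, 273 and 273 CPM in the sgScr libraries and 239, 176 and 209.9 CPM in the sgIgfbp5 libraries. That call was lost by library size alone (-0.22), on log2(TPM + 1) (-0.25) and without sgScr replicate 2 (-0.31). Dnaja2 (log2 fold change -0.18 ± 0.07) was past the threshold but had the other sign on log2(TPM + 1), at 0.03, and was not called by library size alone (-0.07), without the low-count filter (-0.18), with the replicate block (-0.18), or without sgScr replicate 2, sgScr replicate 3 or sgIgfbp5 replicate 3. Dnajb1, Dnajb4 and Dnajb5 did not pass. Their values were 62.8, 63.5 and 67.1 CPM in the sgScr libraries and 64.1, 74.7 and 68.3 CPM in the sgIgfbp5 libraries for Dnajb1, 43.1, 42.2 and 39.5 CPM in the sgScr libraries and 43.5, 31.3 and 34.3 CPM in the sgIgfbp5 libraries for Dnajb4, and 4.69, 5.47 and 5.65 CPM in the sgScr libraries and 5.35, 5.71 and 3.99 CPM in the sgIgfbp5 libraries for Dnajb5. Dnajb1 was called higher by library size alone (0.21), and Dnajb4 was called lower without sgIgfbp5 replicate 1, at a log2 fold change of -0.36. The TPM ratio of Dnajb1 to Hspa8 was 0.0145, 0.0148 and 0.015 in the sgScr and 0.0302, 0.0314 and 0.0305 in the sgIgfbp5 libraries, against 0.0208, 0.0193 and 0.0209 in the control and 0.0135, 0.0115 and 0.0121 in the relapsed libraries in the tumours.

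Of the 5 TRiC genes among the members, 4 fell and 1 rose with sgIgfbp5. Tcp1 had 605, 621 and 641 CPM in the sgScr libraries and 445, 422 and 398 CPM in the sgIgfbp5 libraries (log2 fold change -0.56 ± 0.07), Cct2 changed by -0.39 ± 0.07, Cct5 by -0.28 ± 0.07 and Cct3 by -0.25 ± 0.07 on the log2 scale, the last not called by library size alone or on log2(TPM + 1). Cct4 rose, with 339, 342 and 358 CPM in the sgScr libraries and 499, 479.6 and 466 CPM in the sgIgfbp5 libraries (log2 fold change 0.47 ± 0.06; edgeR adjusted p = 5.04e-05). Relative to the mean TPM of the 5 genes, Cct4 stood at 0.612, 0.582 and 0.612 in the sgScr and 1.01, 0.959 and 1.01 in the sgIgfbp5 libraries. Cct5, with 482, 515 and 539 CPM in the sgScr libraries and 424, 440.1 and 404 CPM in the sgIgfbp5 libraries, was called lower in both comparisons.

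**Figure D4:**
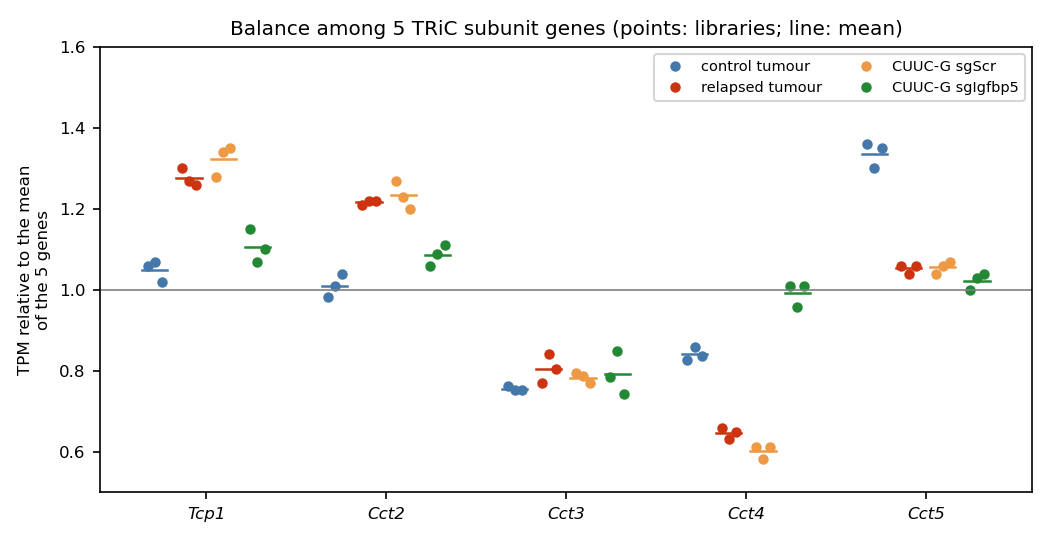
TPM of each of the 5 TRiC member genes divided by their mean (y axis) in every library of the 4 groups, with a line at the group mean. Cct4 lies between 0.582 and 0.660 in the relapsed and sgScr libraries and at 0.828 or above in the control and sgIgfbp5 libraries.

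Hsf2 and the mitochondrial chaperones rose with sgIgfbp5. Hsf2 had 28.1, 27.4 and 28.2 CPM in the sgScr libraries and 56.6, 47.4 and 55.4 CPM in the sgIgfbp5 libraries, a log2 fold change of 0.93 ± 0.09 (SE, n = 3; edgeR adjusted p = 3.02e-06). Hsf1 had 64.2, 66.2 and 73.6 CPM in the sgScr libraries and 70.9, 74.1 and 77.1 CPM in the sgIgfbp5 libraries and did not pass (log2 fold change 0.12 ± 0.08), but was called higher by library size alone (0.23) and on log2(TPM + 1) (0.30). Hspa9 had 880.5, 887 and 914 CPM in the sgScr libraries and 1713, 1704 and 1687 CPM in the sgIgfbp5 libraries, a log2 fold change of 0.93 ± 0.06, and Hspe1 had 198, 216 and 273 CPM in the sgScr libraries and 345, 380.5 and 315 CPM in the sgIgfbp5 libraries (0.60 ± 0.12). Hspe1 was called higher in both comparisons. Hspd1 had 951, 993 and 1043 CPM in the sgScr libraries and 1251, 1073 and 1111 CPM in the sgIgfbp5 libraries (log2 fold change 0.20 ± 0.08; edgeR adjusted p = 0.036), without overlap, but the call was lost in 7 alternatives, among them DESeq2, the replicate block and leaving out sgScr replicate 1 or 2 or sgIgfbp5 replicate 1 or 3. In TPM the Hspe1 to Hspd1 ratio was 0.884, 0.926 and 1.06 in the sgScr and 1.12, 1.42 and 1.15 in the sgIgfbp5 libraries. Hspd1 and Hspe1 lie head to head with 112 shared exon bases on opposite strands. Over the family, the mitochondrial chaperones went from 1690 ± 64.3 to 2601 ± 21.6 TPM (SD, n = 3), sgScr to sgIgfbp5, while the small heat shock genes went from 1379 ± 31.7 to 350.4 ± 7.14 TPM and the HSP90 genes from 3050 ± 131 to 1769 ± 89.7 TPM.

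Set side by side, 17 members rose at relapse and fell with sgIgfbp5: Hsp90aa1, Hsp90ab1, Hspa1a, Hspa1b, Hspa4l, Hspa8, Hspb1, Hspb7, Cryab, Dnaja1, Dnaja2, Bag3, Stip1, Ahsa1, Cct2, Cct3 and Tcp1. These are 48.6% of the members, against 24.7% of the 13904 genes tested in both comparisons. Among the 17, Dnaja1, Dnaja2 and Cct3 lost their calls in some alternatives in each comparison. Hsf2, Hspa9 and Cct4 (8.57%) fell at relapse and rose with sgIgfbp5, against 23.0% of all genes, so opposite calls were common across the genes tested. Hspe1 rose in both (4.49% of all genes did), Hspb2, Hspb6 and Cct5 fell in both (5.02% of all genes), and Dnajb4 and Bag1 passed in neither. Levels were then set side by side across the 4 groups. In mean TPM, all 35 members of the sgScr libraries lay within 1.5-fold of the relapsed libraries, with a median absolute log2 difference of 0.07 and the widest, 0.25, in Hspb2. Of the 12701 genes tested in both comparisons with a mean of at least 1 TPM, 95.8% lay that close, so this likeness was one of the whole libraries. Between sgIgfbp5 and control libraries 24 of 35 lay within 1.5-fold (57.7% of those 12701 genes), with a median of 0.35, and Hspb7 differed most, at -3.77 on the log2 scale (4.12 TPM in the control and 0.301 TPM in the sgIgfbp5 libraries). The tables were scaled separately, so these differences carry no test. With sgScr and relapsed levels this close, the calls of the 2 comparisons were not read as independent of each other.

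**Figure D5:**
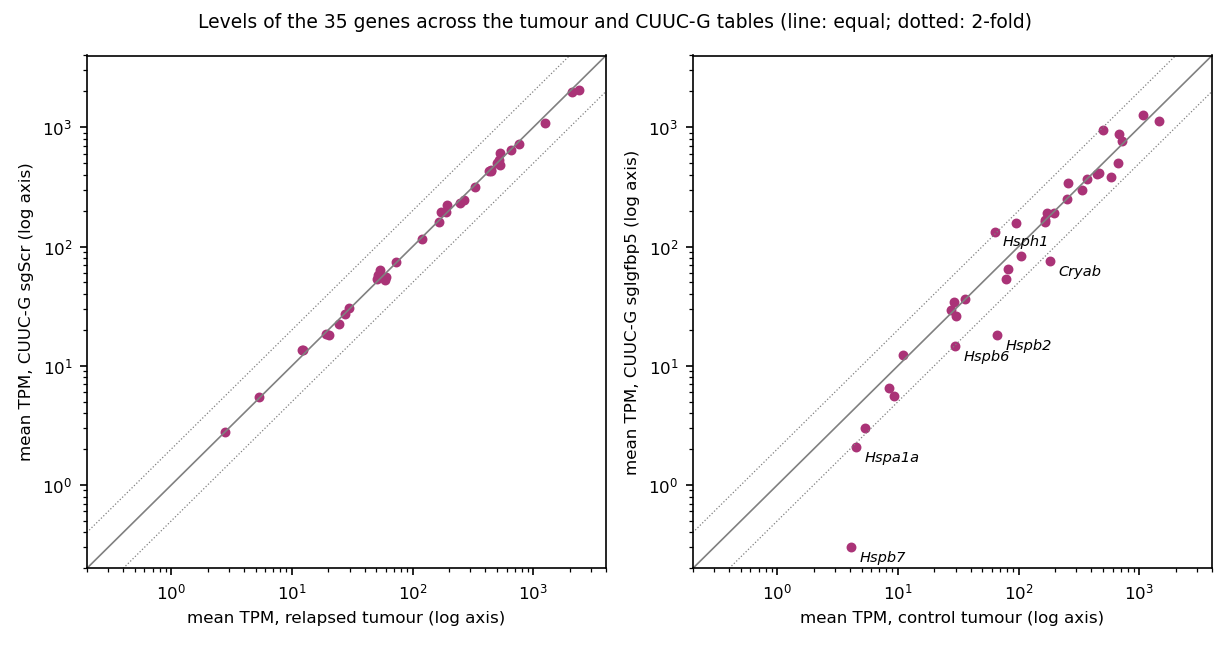
Mean TPM (log axes) of the 35 genes in sgScr against relapsed libraries (left) and in sgIgfbp5 against control libraries (right), with lines of equal level and of 2-fold difference. On the left all genes lie near the line, and on the right the 6 named genes differ more than 2-fold.

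Other genes of the pathway, from 5 lists of 54 genes without any member, moved in both directions. At relapse 23 rose, 21 fell and 10 did not pass (median log2 fold change 0.02), where the shares over all genes tested were 36.6% and 36.9%. With sgIgfbp5 26 rose, 14 fell and 14 did not pass (median 0.04), where 36.5% of all genes were higher and 34.3% lower. The counts of single lists rest on 8 to 15 genes each and are descriptions. Of 15 further HSP90 co-chaperones, 9 rose and 4 fell at relapse, and 7 rose and 6 fell with sgIgfbp5, among them Fkbp5, an immunophilin of steroid receptor complexes, from 99.5 ± 1.57 to 43.6 ± 2.58 CPM (SD, n = 3; log2 fold change -1.19). Of 14 further HSP70, J-domain and BAG genes, 6 rose and 5 fell at relapse, with Hspa12a, a distant HSP70 relative, from 12.7 to 41.9 CPM and the HSP70-binding Hspbp1 from 14.4 to 31.4 CPM. With sgIgfbp5, 4 of these rose and 5 fell, with Hspa12a from 36.6 to 7.70 CPM, Hspa13, a microsomal HSP70, from 113 CPM by a log2 fold change of -1.57, and Bag5 higher, from 24.4 to 71.4 CPM.

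Of 8 further mitochondrial chaperone and quality control genes, 5 fell and 2 rose at relapse, with the disaggregase Clpb from 92.4 to 40.8 CPM and the mitochondrial J-domain gene Dnaja3 from 130.3 to 61.0 CPM, and 6 rose and 1 fell with sgIgfbp5, with the protease Lonp1 from 254 to 527 CPM and Hscb from 6.08 to 12.9 CPM. Of 9 further TRiC and prefoldin genes, 4 rose and 4 fell at relapse, and 3 rose and 1 fell with sgIgfbp5. Among them are the TRiC subunit genes Cct6a, Cct7 and Cct8. At relapse Cct7 and Cct8 rose and Cct6a fell (log2 fold changes 0.34, 0.11 and -0.07). With sgIgfbp5 Cct6a rose (0.24), Cct8 fell (-0.32) and Cct7 did not pass (0.01). Of 8 genes linked to HSF1 but outside the families listed above, 2 rose and 3 fell at relapse. Mrpl18 went from 29.9 to 63.7 CPM and Hsbp1, which binds HSF1, from 91.7 to 46.1 CPM. With sgIgfbp5, 6 of the 8 rose and 1 fell.

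By TPM, Hspa8 (1442 ± 20.9 TPM in the control and 2408 ± 31.3 TPM in the relapsed libraries; SD, n = 3) and Hsp90ab1 (1080 ± 24.2 and 2076 ± 19.9 TPM) were the most abundant members in both tumour groups, and Hspa1a, Hspa2, Hspb7 and Dnajb5 were the 4 lowest in both. Cryab went from rank 15 of 35 in the control to rank 4 in the relapsed libraries (183 ± 3.21 and 757 ± 20.2 TPM), and from rank 4 with sgScr to rank 21 with sgIgfbp5 (731 ± 20.1 and 75.5 ± 3.98 TPM). Several members have processed pseudogenes that share sequence. Of the 31-base words of Hspa8, 71.6% occur in another gene of GENCODE M21, as do 54.0% of those of Hsp90aa1, 52.3% of Hspb1, 50.1% of Hspd1 and 48.1% of Hspe1. The nearest copy of Hsp90aa1, Gm12346, held 100 counts over the relapsed libraries beside 137435 for Hsp90aa1 itself, and that of Hspb1, Hsp25-ps1, held 81 beside 13313.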

How the data were processed

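Poly(A)-selected RNA was sequenced from stranded libraries, per the labels' protocols. The authors deposited estimated counts and TPM for each library, by transcript for the tumours (147828 transcripts) and by gene for CUUC-G. Salmon and the builds GRCh38 (hg38) and GRCm38 (mm10) are named in the submitters' processing notes. The Salmon version, the annotation release and the strand setting are not given in the sources used here. Of the CUUC-G values, 153 had a count of 0 and a TPM above 0.

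Tumour counts were summed by gene and rounded to whole numbers. Genes were filtered with filterByExpr, scaled by TMM and tested with edgeR 4.0.16's robust quasi-likelihood test in R 4.3.3, separately for each pair of groups, with Benjamini-Hochberg adjustment over all genes tested and a threshold of 0.05. CPM values are on TMM-scaled library sizes. Alternatives used DESeq2 1.42.0, limma 3.58.1 on log2(TPM + 1) and log2(TPM + 0.1), a minimum mean TPM of 1, other scalings and filters, protein-coding transcripts alone, the replicate number as a block, and each library left out in turn. On simulated counts for the tumour comparison, the test called 97 of 100 genes set to 2-fold and 85 of 100 set to 1.5-fold, with 8 false calls among 14173 unchanged genes. For CUUC-G, it called 97 and 94 of 100, with 8 false calls among 14353. Both simulations used the same spread between libraries. That spread was close to the one fitted in the tumours (biological coefficient of variation 0.0522) but well below the one in CUUC-G (0.0995). The CUUC-G simulation therefore does not show how many changes the test finds at the spread of those libraries. No 2 libraries of a group agreed within sampling noise. Positions and shared sequence came from GENCODE M21.

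The members and gene lists were chosen with earlier results of these data known. All members were named. Values in every library were set for the most changed called member of each family, for Hsf1, Hsf2, Hspa1a and Hspa1b, and for members not called or called in the same direction in both comparisons, and were added for others after their values were seen. From the other lists, the 3 largest increases and 3 largest decreases among called genes whose average log2 CPM reached 2 were named. The TRiC subunit genes Cct6a, Cct7 and Cct8 were named besides, after their values were seen. The human MGHU3 tables were not used here, since the members are mouse genes.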

Additional observations from a re-analysis of the deposited data

How the results depend on the processing

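In the tumours, 25 of 35 members kept their call and direction in all 18 alternatives, and in CUUC-G 26 of 35 did in 17. With a library left out, members called numbered 19 to 21 higher and 9 to 11 lower at relapse, and 4 to 5 higher and 18 to 22 lower with sgIgfbp5. Over the other settings these were 15 to 22 and 9 to 12 at relapse, and 4 to 8 and 17 to 20 with sgIgfbp5, where scaling by library size alone gave 8 higher. Among called members, signs turned with limma on TPM alone: at relapse Hspa4 (-0.0269 with a pseudocount of 1, with and without a filter, and -0.0270 with 0.1) and Cct3 (-0.0068 in each of these), and with sgIgfbp5 Dnaja2 (0.0329, 0.0329 and 0.0331). The cause was not tested. Replicate numbers are shared between groups, but same-numbered libraries deviated together little or not at all (correlations 0.02, 0.03 and 0.02 in the tumours, and 0.06, 0.11 and -0.16 in CUUC-G). In the tumours each library correlated best with its own number, at these low values, and in CUUC-G not every library did. No pairing was assumed. With the replicate number as a block, 21 members were higher and 11 lower at relapse, against 5208 and 5264 of the 14373 genes tested. With sgIgfbp5 the block gave 4 members higher and 19 lower, against 5155 and 4882 of 14553 genes. Depth limits Hspb7 with sgIgfbp5, at 35 counts over 3 libraries.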
